A study of Mus musculus with 18 samples.

Results

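The genes described here encode the proteasome and the proteins that assemble, activate or inhibit it. They were chosen by symbol, as every entry named Psma, Psmb, Psmc, Psmd, Psme, Psmf or Psmg followed by digits, which gave 48 of the 19545 entries in the table. Of the 48, 46 reached 1 FPKM in at least 3 libraries and were tested, as were 12682 entries in all. The pair left out was Psma8, a core subunit of the testis, and Psmb11, a catalytic subunit of the thymic cortex. Near the edge of the rule stood Psmc3ip, whose symbol does not end in a digit and whose values ran from 11.4 to 21.1 FPKM, and Psme2b, at 0.09 to 1.26 FPKM. Neither was counted as a member.

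The data are RNA-seq values from 18 kidney samples of mice of the outbred ICR strain at 10 weeks of age, with 3 samples in each of 6 groups. A control group had neither agent. The AOS group received AOS at a dose of 10 mg/kg, the STZ group received STZ, and the STZ+AOS group received both, with AOS at the same dose. The last 2 groups paired STZ with FMT: STZ+AOS-FMT, marked AOS FMT at 10 mg/kg, and STZ+control-FMT, marked as the control. STZ usually stands for streptozotocin, a toxin of pancreatic beta cells that makes rodents diabetic. FMT usually means faecal microbiota transplantation. AOS is not written out in the labels, and blood glucose, sex and the donors were not described in the sources used here. The study asked how such transfers act on a kidney exposed to STZ, and the question followed here is whether transcripts of the protein-degrading machinery differ between the groups. Values are FPKM, reads scaled to gene length and to the size of the library. They are printed for replicates 1, 2 and 3 in that order, or as the mean ± SD of 3 samples. Whether the replicates came from separate mice is not stated, so each p-value rests on how far these samples differ, and that spread may be technical.

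The proteasome is a barrel-shaped protease that degrades proteins tagged with ubiquitin. Its core particle stacks rings of alpha subunits, which form the gate, on rings of beta subunits, 3 of which (Psmb5, Psmb6 and Psmb7) carry the active sites. A cap of ATPases and other subunits binds ubiquitin chains, removes them and unfolds the substrate. Interferon gamma induces 3 alternative catalytic subunits, Psmb8, Psmb9 and Psmb10, which take the places of Psmb5, Psmb6 and Psmb7 in newly built cores to make the immunoproteasome, and the PA28 activator built of Psme1 and Psme2. The immunoproteasome is abundant in leukocytes and scarce in resting tubule cells, and its peptides feed presentation on MHC class I.

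The promoters of genes from both classes are shown first, because the inducible and the standard subunits behaved differently across the libraries. Of the 48 members, 40 had a promoter in the RefSeq table for GRCm38.p6, the build named mm10 elsewhere. Each stretch starts 250 bases before the listed start site, ends where an annotated exon begins, and runs 5′ to 3′ on the strand of the gene. Capitals mark a match to TGACNNNGC, the core of the antioxidant response element.
Psmb5, minus strand, chr14:54618023-54618245: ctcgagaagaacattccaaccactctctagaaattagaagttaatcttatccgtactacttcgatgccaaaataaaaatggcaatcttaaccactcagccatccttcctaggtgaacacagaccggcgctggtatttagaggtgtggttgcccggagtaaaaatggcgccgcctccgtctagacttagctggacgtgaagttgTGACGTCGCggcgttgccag
Psmb6, plus strand, chr11:70525107-70525356: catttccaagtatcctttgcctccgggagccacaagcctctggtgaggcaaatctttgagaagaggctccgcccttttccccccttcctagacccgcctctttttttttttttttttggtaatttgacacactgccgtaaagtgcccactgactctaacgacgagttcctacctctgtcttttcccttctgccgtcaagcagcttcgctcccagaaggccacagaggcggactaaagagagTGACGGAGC
Psmb10, minus strand, chr8:105938445-105938642: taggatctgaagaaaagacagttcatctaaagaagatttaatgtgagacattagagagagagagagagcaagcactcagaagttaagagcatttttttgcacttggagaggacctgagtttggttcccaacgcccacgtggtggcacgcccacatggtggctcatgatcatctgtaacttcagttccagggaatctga
Psme2, minus strand, chr14:55591114-55591351: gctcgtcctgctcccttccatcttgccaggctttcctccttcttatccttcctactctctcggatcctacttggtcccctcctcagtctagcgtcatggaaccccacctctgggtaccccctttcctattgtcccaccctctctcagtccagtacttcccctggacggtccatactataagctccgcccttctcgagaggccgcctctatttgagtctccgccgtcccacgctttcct

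The 250 bases before the start were searched on both strands for 4 motifs, whose matches may overlap. TGACNNNGC lay 47 to 39 bases before the start of Psmb5 and 9 to 1 bases before that of Psmb6. It was found in 2 of 11 standard core promoters (18.2%), 2 of 14 cap promoters (14.3%) and 0 of the 5 inducible ones, against 10.1% of the 27025 genes with a promoter. TTCNNNGAA, the interferon gamma-activated site, was found in 1 of the 5 inducible promoters, 97 to 89 bases before the start of Psmb8, and in 7.18% of all genes. The core of the interferon-stimulated response element, GAAA followed by any 2 bases and GAAA, was found in 0 of the 5 inducible promoters and in 3.04% of all genes. It was found in 1 of 11 standard core promoters and 1 of 14 cap promoters. CCAAT was found in 6 of 11 standard core promoters (54.5%), 4 of 14 cap promoters (28.6%) and 1 of the 5 inducible ones. Over the members with a promoter it was found in 14 of 40 (35%), beside 34.5% of all genes. These are matches of letters in a short window and not measured binding.

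The whole series needs a few facts. Each library held 11407 to 12607 genes at 1 FPKM or more. Totals of reads are not known here, so the depth behind each value is unknown. Markers of the proximal tubule (11 genes, summed) ran from 9304 FPKM in STZ+AOS 1 to 163400 FPKM in AOS 2. Most of each sum was Kap, an androgen-responsive gene of that segment, so the range is chiefly that of Kap. Kap was at 6174 FPKM in STZ+AOS 1 and 155154 FPKM in AOS 2. Between STZ+AOS and AOS, 9 of the 11 markers were lower and 2 higher, with log2 differences from -2.85 to 0.74. Kap stood at 144521 to 155154 FPKM in control 1, control 2, the 3 AOS libraries and STZ 1 and at 6174 to 85880 FPKM in the other 12. The median over all tested genes was lower where Kap was high, at 8.15 to 8.68 FPKM in those 6 libraries against 8.84 to 11.9 FPKM in the other 12. Transcripts of the adrenal cortex (9 genes, summed) reached 929 FPKM in control 3, 2566 FPKM in STZ+AOS 1, 126 FPKM in STZ+AOS 2 and 1870 FPKM in STZ+AOS 3, against 2.55 to 62.8 FPKM elsewhere. In whole tissue, fewer cells of a type and less RNA per cell cannot be told apart.

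The standard core and the cap were abundant and steady. On the scale per kilobase, the 14 standard core genes averaged 48.1 FPKM (Psma5) to 277 FPKM (Psmb3), with a median of 139 FPKM over the 14 genes. The 17 cap genes averaged 41.1 FPKM (Psmd14, the deubiquitinase of the lid) to 115 FPKM (Psmd8, a lid subunit), with a median of 70.3 FPKM. The SD of a gene within groups, on the log2 scale, had a median of 0.104 over the standard core and 0.108 over the cap, against 0.189 over all genes tested. None of the 14 standard core or 17 cap genes varied more within groups than the median gene. The median level over all genes tested was 9.63 FPKM, and spread was not compared with genes of matched level. The highest group mean exceeded the lowest by 1.06 to 1.18 times for the standard core and by 1.07 to 1.31 times for the cap, and the median over all genes was 1.43 times. The widest of these was that of Psmd11, a lid subunit, at 62.7 ± 7.50 FPKM in STZ+AOS and 47.8 ± 5.68 FPKM in STZ+AOS-FMT.

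**Figure D1:**
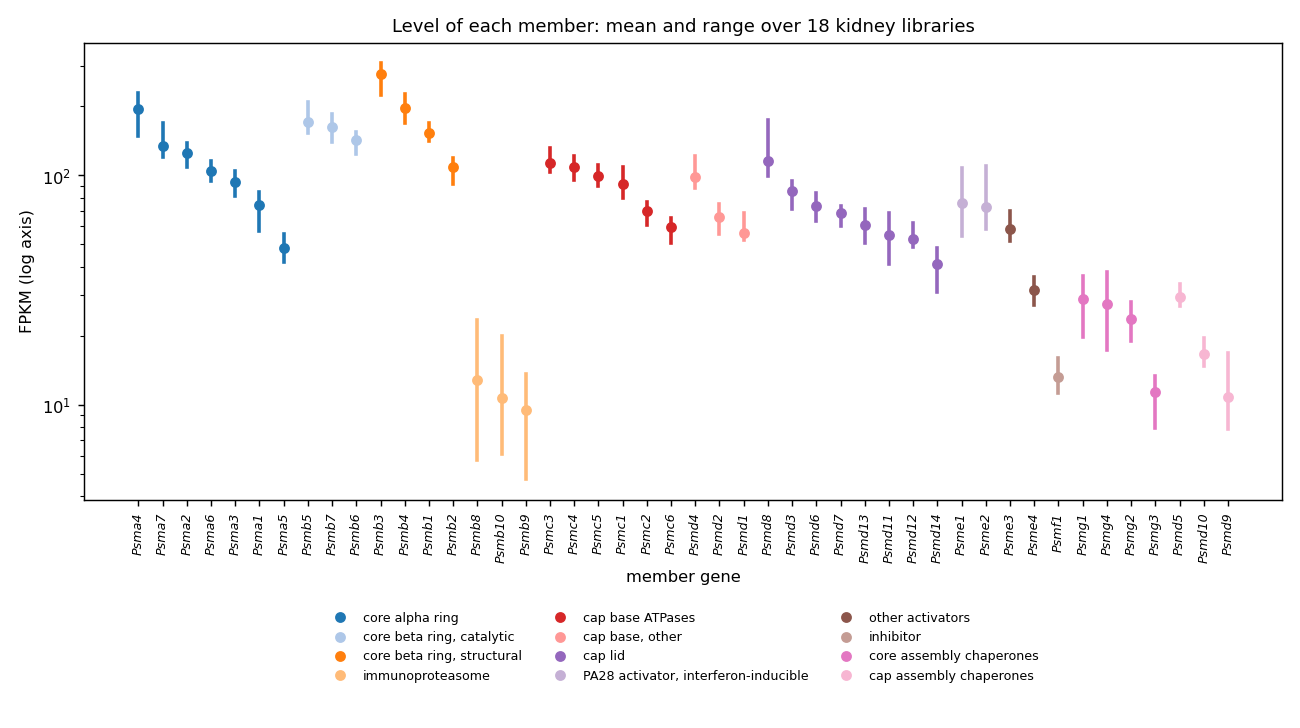
Mean FPKM (points) and range from the lowest to the highest of 18 libraries (lines) for the 46 tested members, on a log axis, coloured by role. The 3 immunoproteasome genes average 9.48 to 12.8 FPKM and have the longest lines, while the 14 standard core genes average 48.1 to 277 FPKM and have short ones.

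Summed over the 14 genes, the standard core stood at 1974 ± 35.8 FPKM in controls, 2032 ± 56.3 FPKM in AOS, 2038 ± 90.3 FPKM in STZ and 1957 ± 194 FPKM in STZ+AOS. It was 1967 ± 45.1 FPKM in STZ+AOS-FMT and 1965 ± 62.5 FPKM in STZ+control-FMT. The groups overlapped, and the lowest and the highest single library were both STZ+AOS ones, replicate 3 at 1752 FPKM and replicate 1 at 2137 FPKM. The summed cap ran from 1237 FPKM in STZ 3 to 1520 FPKM in STZ+AOS 1, with group means between 1288 and 1369.5 FPKM.

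Of the catalytic subunits of the standard core, Psmb6 varied least within groups (SD 0.0765 on the log2 scale), then Psmb7 (0.104) and Psmb5 (0.132). Psmb5, which cuts after hydrophobic residues (mm10, chromosome 14, 54614119 to 54618022, minus strand), was at 187, 174 and 161 FPKM in controls, 189, 180 and 173 FPKM in AOS and 190.2, 177 and 154 FPKM in STZ. Its values were 208, 166 and 153 FPKM in STZ+AOS, 159, 176 and 154 FPKM in STZ+AOS-FMT, and 160.0, 161 and 171 FPKM in STZ+control-FMT. Every pair of groups compared overlapped. Psmb6, which cuts after acidic residues (chromosome 11, 70525367 to 70527858, plus strand), had group means from 133 ± 12.3 FPKM in controls to 149.6 ± 5.19 FPKM in STZ+AOS. Its lowest library was control 1 at 124 FPKM and its highest STZ+AOS 1 at 155 FPKM. Psmb7, which cuts after basic residues (chromosome 2, 38588036 to 38644087, minus strand), ran from 149 ± 7.43 FPKM in STZ+AOS to 175 ± 8.41 FPKM in AOS. Its values were 185, 171 and 169 FPKM in AOS and 151, 156 and 141 FPKM in STZ+AOS, so these groups did not overlap. The genome also holds processed pseudogenes of Psmb5 (1), Psmb6 (2) and Psmb7 (1), and how the authors treated reads that match more than 1 place is not given in the sources used here, so the levels of these 3 genes are uncertain to that extent.

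The immunoproteasome genes averaged 9.48 to 12.8 FPKM per gene, far under the subunits they replace, and they differed widely between samples of the same group. Psmb8 (chromosome 17, 34197721 to 34201454, plus strand) was at 7.13, 8.75 and 21.2 FPKM in controls, 10.6, 5.71 and 9.73 FPKM in AOS and 7.58, 13.6 and 17.3 FPKM in STZ. Its values were 23.3, 20.1 and 11.6 FPKM in STZ+AOS, 15.4, 9.53 and 11.6 FPKM in STZ+AOS-FMT, and 14.1, 9.43 and 13.4 FPKM in STZ+control-FMT. The highest of 18 libraries exceeded the lowest by 4.08 times, and control 3 lay among the high libraries while STZ 1 lay among the low ones.

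Psmb9 (chromosome 17, 34181987 to 34187764, minus strand) was likewise highest in control 3 among the controls and lowest in STZ 1 among the STZ libraries. It was at 5.0, 5.77 and 13.3 FPKM in controls, 7.70, 4.74 and 7.84 FPKM in AOS, 6.16, 12.8 and 12.8 FPKM in STZ and 12.1, 13.7 and 7.53 FPKM in STZ+AOS. In the transfer groups it was at 12.5, 8.38 and 7.45 FPKM (STZ+AOS-FMT) and 10.5, 9.70 and 12.8 FPKM (STZ+control-FMT). No pair of groups that was compared lay apart. Psmb9 overlaps Tap1, a peptide transporter subunit encoded on the other strand, and the use of strand in counting is not stated, so reads of the overlap cannot be assigned with certainty. Tap1 was at 2.32, 2.22 and 9.47 FPKM in controls, also highest in replicate 3.

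Psmb10 (chromosome 8, 105935735 to 105938444, minus strand) was at 8.07, 8.78 and 14.6 FPKM in controls, 9.97, 6.10 and 9.01 FPKM in AOS, 6.29, 12.6 and 12.5 FPKM in STZ and 19.9, 12.8 and 8.73 FPKM in STZ+AOS. It was at 12.6, 9.38 and 9.01 FPKM in STZ+AOS-FMT and at 11.3, 10.4 and 10.8 FPKM in STZ+control-FMT. Here again control 3 was the highest control and STZ 1 the lowest STZ library.

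The PA28 genes lie close together on chromosome 14, Psme1 at 55578123 to 55581529 (plus strand) and Psme2 at 55587441 to 55591113 (minus strand). They were far more abundant than the immunoproteasome genes. Psme1 was at 54.5, 61.4 and 108 FPKM in controls, 70.6, 62.8 and 61.7 FPKM in AOS, 57.9, 76.2 and 88.9 FPKM in STZ and 103, 99.4 and 74.6 FPKM in STZ+AOS. Its means were 69.9 ± 9.69 FPKM in STZ+AOS-FMT and 76.8 ± 2.64 FPKM in STZ+control-FMT. Psme2 was at 58.5, 60.1 and 91.6 FPKM in controls, 67.0, 59.9 and 71.2 FPKM in AOS, 58.7, 75.3 and 81.9 FPKM in STZ and 110.4, 81.5 and 66.8 FPKM in STZ+AOS. Its means were 70.9 ± 3.29 FPKM in STZ+AOS-FMT and 70.6 ± 1.16 FPKM in STZ+control-FMT, narrower spreads than in its other 4 groups.

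**Figure D2:**
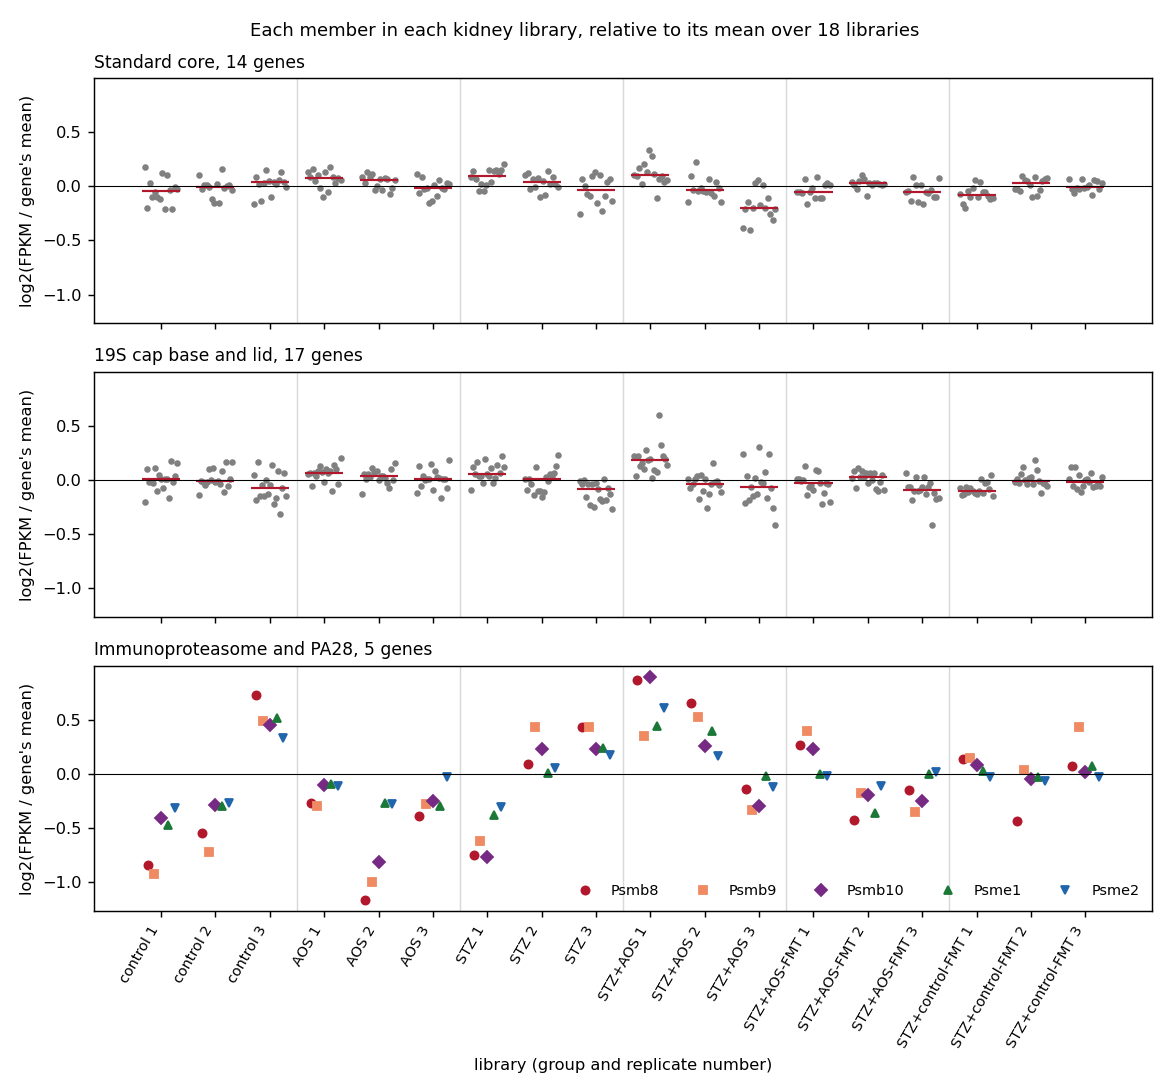
Each gene in each of the 18 libraries as log2 of its FPKM over its own mean, for the 14 standard core genes, the 17 cap genes (grey points, with the median as a red line) and the 5 inducible genes (coloured symbols). Most grey points lie near 0, with the standard core lowest in STZ+AOS 3 and the cap highest in STZ+AOS 1, while the 5 inducible genes sit together above 0 in control 3, STZ 3, STZ+AOS 1 and STZ+AOS 2 and below 0 in control 1, control 2, the 3 AOS libraries and STZ 1.

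The 5 inducible genes shared many of their high and low samples. In controls all 5 were highest in replicate 3 and lowest in replicate 1. In STZ all 5 were lowest in replicate 1, in STZ+AOS all 5 were lowest in replicate 3, and in STZ+control-FMT all 5 were lowest in replicate 2. The order was less shared elsewhere: in AOS 4 genes shared the lowest replicate and 3 the highest, and in STZ+AOS-FMT 3 shared each. In STZ and in STZ+control-FMT 3 shared the highest, and in STZ+AOS 4 did. Ranked over all 18 libraries, each of the 5 was among the 6 highest in control 3, STZ 3 and STZ+AOS 2, and among the 6 lowest in control 1, control 2, AOS 2 and STZ 1. The within-group SD on the log2 scale had a median of 0.450 over the 3 immunoproteasome genes and 0.261 over the PA28 pair, and all 5 lay above the median gene. Within a library the 5 genes share its tissue and its scaling, so the shared order is given as a description.

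Other genes moved over the same libraries. Summed over 16 leukocyte markers, the level was 94.9, 88.9 and 139 FPKM in controls, 82.8, 83.6 and 119 FPKM in STZ and 196, 148 and 77.9 FPKM in STZ+AOS. It was 63.5 to 92.8 FPKM in AOS, 75.4 to 106 FPKM in STZ+AOS-FMT and 83.8 to 133 FPKM in STZ+control-FMT, and no marker was at 0 in all 3 libraries of a group. In STZ+AOS the order of the leukocyte sum was that of Psmb8. Among controls the sum was lowest in replicate 2, and the 5 inducible genes in replicate 1. The sum was nearly level in STZ 1 and STZ 2, where Psmb9 was at 6.16 and 12.8 FPKM. The 10 interferon targets, summed, stood at 43.0, 42.1 and 163 FPKM in controls, 38.1, 111 and 103 FPKM in STZ and 177, 143 and 83.5 FPKM in STZ+AOS. AOS 3 departed from the immunoproteasome, with 201 FPKM of interferon targets, of which Irf7 gave 96.6 FPKM, against 52.1 and 41.5 FPKM in the other AOS libraries. Cdkn1a, a growth arrest gene, was also high in control 3 (82.6 FPKM, against 14.9 and 7.11 FPKM in the other controls) and low in STZ 1 (6.52 FPKM, against 62.5 and 80.1 FPKM in the other STZ libraries). It parted from the 5 genes in STZ+AOS 3, where it had its highest value, 155 FPKM, and they their lowest of that group. Podocyte markers (5 genes, summed) stood at 43.2, 43.1 and 101.7 FPKM in controls and 35.9, 93.8 and 80.8 FPKM in STZ. They stood at 42.8 to 51.4 FPKM in AOS and at 100.1, 104.6 and 104.3 FPKM in STZ+AOS. Markers of the distal and collecting tubule (8 genes, summed) stood at 620.3, 525.5 and 1108 FPKM in controls and at 486, 831 and 951 FPKM in STZ. In STZ+AOS they stood at 589.9, 924.5 and 905.2 FPKM. Both sums were thus lowest in STZ+AOS 1, whereas the 5 inducible genes were lowest in STZ+AOS 3. The part of leukocytes, of interferon targets or of the mix of kidney tissue in the levels of the inducible genes was not tested.

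Ratios within a library do not depend on its scaling. The ratio of Psmb8 to Psmb5 was 0.0381, 0.0503 and 0.132 in controls, 0.0563, 0.0317 and 0.0561 in AOS, 0.0398, 0.0767 and 0.112 in STZ and 0.112, 0.121 and 0.0758 in STZ+AOS. It was 0.0966, 0.0542 and 0.0752 in STZ+AOS-FMT and 0.0881, 0.0586 and 0.0785 in STZ+control-FMT. The lowest and the highest library, AOS 2 and control 3, differed 4.15-fold, and group means ran from 0.0480 ± 0.0141 in AOS to 0.103 ± 0.0240 in STZ+AOS. Psmb9 to Psmb6 ran from 0.0339 (AOS 2) to 0.0943 (STZ 2), and Psmb10 to Psmb7 from 0.0349 (STZ 1) to 0.132 (STZ+AOS 1).

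Over the 6 groups, a permutation test of the log2 ratios (100000 resamples, 3 pairs of subunits) gave p = 0.388 for Psmb8 to Psmb5, 0.547 for Psmb9 to Psmb6 and 0.355 for Psmb10 to Psmb7. Each was 0.547 after Benjamini-Hochberg adjustment over the 3 pairs. With control 3 and STZ 1 both left out, the adjusted p was 0.0497 for each pair. Those libraries were picked from earlier results of these data, in which they stood apart from their groups, so that value is not independent evidence. Leaving out any 1 library gave adjusted p of 0.227 to 0.803.

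**Figure D3:**
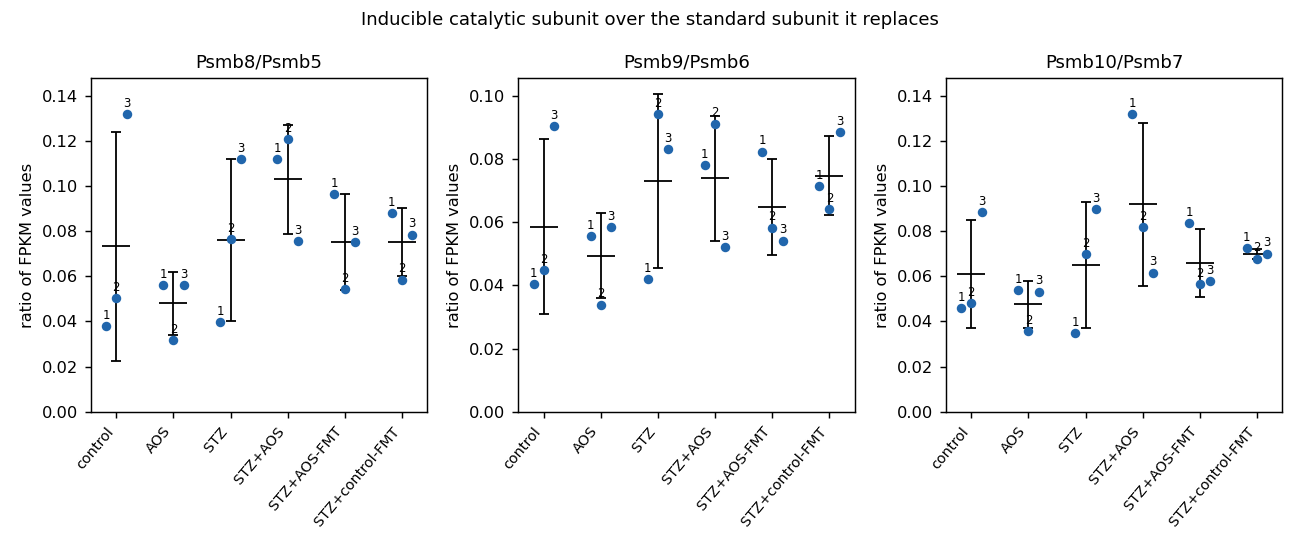
Ratio of FPKM values of each inducible catalytic subunit to the standard subunit it replaces, by group. Points are single libraries with their replicate number, and bars give the mean ± SD of 3. Control 3 lies above the other controls and STZ 1 below the other STZ libraries in all 3 panels, and the groups overlap widely.

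The first comparison, STZ against control, bears on STZ alone. By limma's moderated test with Benjamini-Hochberg adjustment over 12682 genes, 0 of 46 members passed 0.05, beside 0% of all genes. At an unadjusted p under 0.05 there were 0 members, beside 1.27% of all genes. The members' median log2 difference was 0.03, from -0.07 to 0.41 (Psmb9), beside a median of 0.00 over all genes. The smallest unadjusted p belonged to Psmg3, a chaperone of core assembly, at 12.5 ± 1.29 FPKM in STZ and 10.1 ± 2.09 FPKM in controls (log2 difference 0.31 ± 0.16, SE, adjusted p = 0.9996), and the groups overlapped. Psmb6 (0.13 ± 0.08, adjusted p = 0.9996) and Psma2, an alpha ring subunit (0.15 ± 0.09, adjusted p = 0.9996), came next. With control 3 and STZ 1 left out, 1 member was called, Psmb9, higher in STZ by 1.11 (adjusted p = 0.0289), where 8.82% of all genes were called. For Psmb9 control 3 was the highest control and STZ 1 the lowest STZ library, so leaving them out widened the difference by itself. That call is not independent evidence.

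For the standard core the 95% intervals in this comparison reached at most 0.35 from 0 on the log2 scale, and for the cap 0.38. For the 5 inducible genes they reached 1.13 (Psmb9), so that differences up to that size were not excluded.

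AOS against control asks what AOS did without STZ. Again 0 of 46 members passed limma's test where 0.071% of all genes were called, and 0 had an unadjusted p under 0.05, beside 4.11% of all genes. The members' median log2 difference was 0.03, and that over all genes -0.10. Psmg2, a chaperone of core assembly, was at 18.96, 22.1 and 22.8 FPKM in AOS and 23.5, 23.3 and 24.4 FPKM in controls (-0.16 ± 0.10, adjusted p = 0.817). Psmd12, a lid subunit (0.12 ± 0.08, adjusted p = 0.817), and Psmd1, a scaffold of the cap base (0.10 ± 0.07, adjusted p = 0.817), had AOS values above all 3 controls. In 8 of 46 members every AOS value lay above every control and in 3 below, beside 366 and 1295 of the 12682 genes. The 5 inducible genes had a median difference of -0.13, all 5 below 0, with control 3 the highest control for each.

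STZ+AOS against STZ asks what AOS did in STZ-treated mice. By limma's test 0 of 46 members were called, beside 4.53% of all genes, and 3 had an unadjusted p under 0.05 (6.52%), beside 33.1% of all genes. Psmd4, the ubiquitin receptor of the cap base, stood at 113, 99.1 and 122 FPKM in STZ+AOS and 102, 88.2 and 96.4 FPKM in STZ (0.21 ± 0.08, adjusted p = 0.0988), with overlapping groups. Psmd1 was at 68.3, 58.0 and 57.2 FPKM against 55.4, 52.5 and 55.0 FPKM (0.17 ± 0.07, adjusted p = 0.140), and these groups lay apart. In 2 of 46 members every STZ+AOS value lay above every STZ value and in 0 below, beside 2568 and 509 of the 12682 genes. Psmc1, an ATPase of the cap base, was at 107, 92.1 and 109 FPKM against 86.2, 92.5 and 91.3 FPKM (0.18 ± 0.09, adjusted p = 0.146). Psmd4, Psmd1 and Psmc1 were below 0 once the libraries were rescaled by the median of ratios. Psmb3, a structural beta subunit, was called after that rescaling (-0.41, adjusted p = 0.0447), beside 6.35% of all genes. Psmd4 was called without STZ+AOS 2 (0.29, adjusted p = 0.0371) and Psmb7 without STZ 3 (-0.27, adjusted p = 0.0274). The share of all genes called in those fits is not given here, so neither call is read as a result about the members. As deposited, the members' median was 0.01 and that of the 5 inducible genes 0.31, beside 0.19 over all genes.

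No difference between the transfer groups and STZ, or between the transfers, was detected in a member. By limma's test in STZ+AOS-FMT against STZ, 0 of 46 members were called, beside 0.11% of all genes, and 0 had an unadjusted p under 0.05, beside 3.78%. In STZ+control-FMT against STZ the same counts were 0 and 0, beside 0.103% and 2.22%. Between the transfers they were 0 and 0, beside 0% and 1.65%. Psmg2 was at 26.4, 25.4 and 27.9 FPKM in STZ+AOS-FMT and 23.9, 23.5 and 23.3 FPKM in STZ (0.16 ± 0.10, adjusted p = 0.9995). Psma2 had lower means in both transfer groups, 123 ± 2.95 FPKM (STZ+AOS-FMT, -0.14 ± 0.09, adjusted p = 0.9995) and 119 ± 6.49 FPKM (STZ+control-FMT, -0.18 ± 0.09, adjusted p = 1), than in STZ, at 135 ± 3.70 FPKM, and neither overlapped STZ. In STZ+AOS-FMT, 4 of 46 members lay wholly below STZ and 1 wholly above, beside 368 and 697 of the 12682 genes. In STZ+control-FMT, 5 members lay wholly below STZ and 1 wholly above, beside 282 and 532 genes. These comparisons share the STZ libraries. The interval of the difference between the transfers reached 0.30 from 0 for the standard core, 0.43 for the cap and 0.94 for the inducible genes.

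STZ+AOS against AOS compares mice given AOS with and without STZ, and shares its STZ+AOS libraries with the comparison above. It was the 1 comparison with calls among the members: 4 of 46 passed, all 4 higher in STZ+AOS, where 46.5% of all genes were called, 39.3% higher and 7.18% lower. The members' share is thus far under that of the table as a whole. The members' median log2 difference was 0.01 and that over all genes 0.29. In 8 members every STZ+AOS library lay above every AOS library and in 4 below, beside 49.7% and 9.75% of all genes. Kap stood at 6174, 35781 and 41198 FPKM in STZ+AOS and 144521 to 155154 FPKM in AOS, and adrenal transcripts at 126 to 2566 FPKM against 3.21 to 5.64 FPKM. Their part in the result was not tested.

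Psmf1, an inhibitor that binds the core (chromosome 2, 151715812 to 151744186, minus strand), stood at 15.98, 14.6 and 13.8 FPKM in STZ+AOS and 11.5, 11.6 and 11.9 FPKM in AOS (limma log2 difference 0.32 ± 0.08, adjusted p = 0.00953). All 3 STZ+AOS values lay above all 3 AOS values. It was at 11.3, 11.4 and 13.7 FPKM in controls and at 12.4 to 14.5 FPKM in the STZ and transfer libraries. By limma's F-test over the 6 groups it had the smallest adjusted p of the members (0.0937), and leaving out control 3 brought it to an adjusted p of 0.0195. The share of all genes called in that F-test is not given here, so the value is not read as a result about Psmf1. After median-of-ratios rescaling its difference was -0.01 (adjusted p = 0.887), and after quantile normalization it was -1.00e-04, so that its difference was close to the 0.29 of the median gene.

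Psmd9, a chaperone of cap assembly (chromosome 5, 123169413 to 123250131, plus strand), stood at 10.8, 11.6 and 16.8 FPKM in STZ+AOS and 10.7, 8.71 and 7.84 FPKM in AOS (0.47 ± 0.17, adjusted p = 0.0356), a call lost in 3 of the 18 fits with 1 library left out. The groups did not overlap but met at 10.8 and 10.7 FPKM. Hpd, an enzyme of tyrosine breakdown whose annotated range overlaps that of Psmd9 on the other strand, stood at 132, 53.5 and 493 FPKM in STZ+AOS and 58.2, 106 and 45.5 FPKM in AOS, and both genes peaked in STZ+AOS 3. Without strand in the counting, their reads cannot be told apart where they overlap.

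Psmb8, whose values are given above, averaged 18.3 ± 6.06 FPKM in STZ+AOS and 8.68 ± 2.61 FPKM in AOS (0.98 ± 0.38, adjusted p = 0.0444). Its groups did not overlap, with 11.6 FPKM the lowest in STZ+AOS and 10.6 FPKM the highest in AOS. It had the largest log2 difference of the 4 members called and was the 1 inducible gene among them. The call was lost in 10 of the 18 fits with 1 library left out (adjusted p up to 0.163), among them those without AOS 1, AOS 2, AOS 3, STZ+AOS 1 or STZ+AOS 2. Psmb9 (0.63 ± 0.34, adjusted p = 0.129), Psmb10 (0.62 ± 0.29, adjusted p = 0.0943), Psme1 (0.49 ± 0.21, adjusted p = 0.0735) and Psme2 (0.35 ± 0.18, adjusted p = 0.118) had higher means in STZ+AOS and did not pass. All 5 passed, among 11 members in all and 56.5% of all genes, with control 3 and STZ 1 left out. Those libraries lie outside both groups compared and entered through the estimate of the spread. They were picked because they stood apart from their groups, so these calls are not independent evidence.

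Psmc1 stood at 107, 92.1 and 109 FPKM in STZ+AOS and 95.6, 84.0 and 84.4 FPKM in AOS (chromosome 12, 100110154 to 100123405, plus strand). The difference was 0.22 ± 0.09 (adjusted p = 0.0472), and the groups overlapped. The call was lost in 13 of the 18 fits with 1 library left out (adjusted p up to 0.142), and the difference was -0.13 after median-of-ratios rescaling. Just short of the threshold stood Psmd4 (0.21, adjusted p = 0.0516), Psmg4, a chaperone of core assembly (0.52, adjusted p = 0.0560), and Psmb7 (-0.23, adjusted p = 0.0566).

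**Figure D4:**
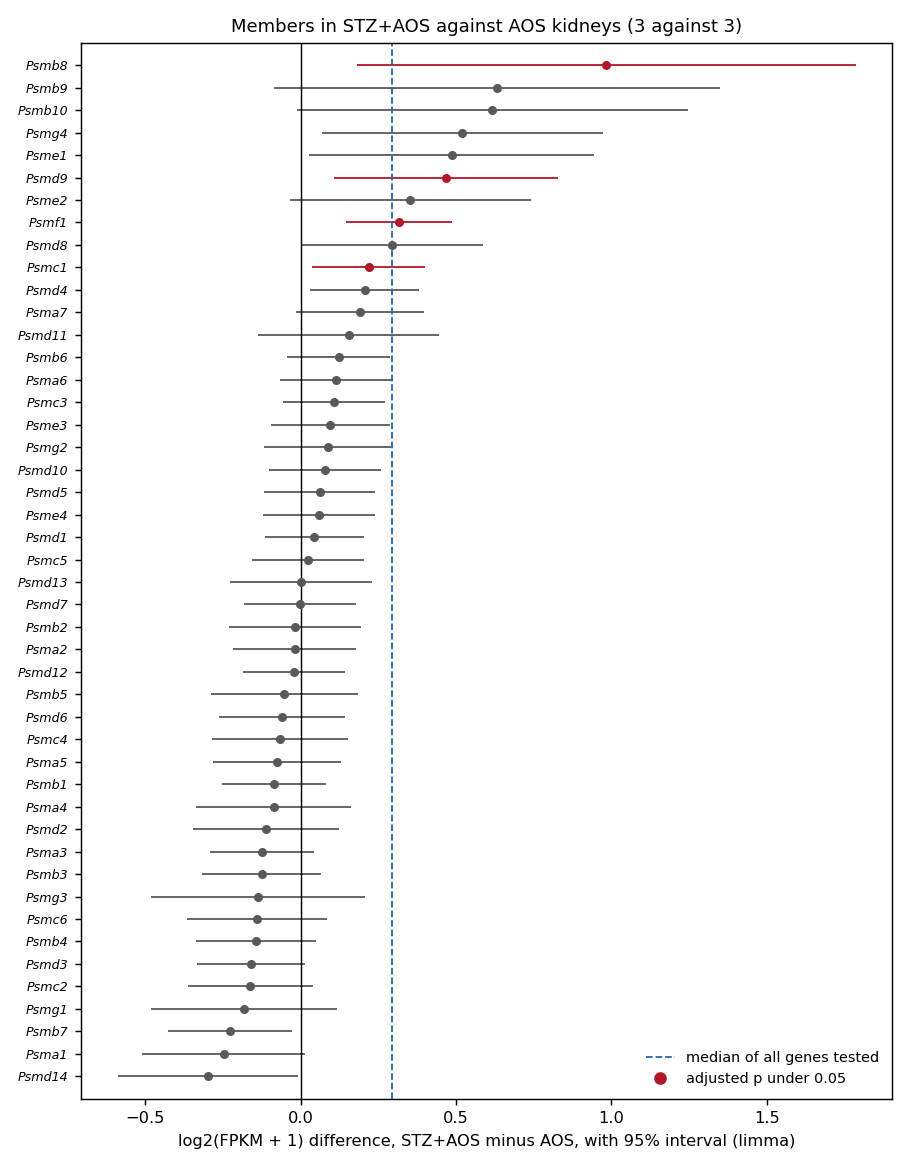
Log2 difference of each of the 46 members between STZ+AOS and AOS, with its 95% interval from limma. The solid line is at 0 and the dashed line at the median of all genes, 0.29. The 4 members called are in red, and most standard core and cap genes lie near 0, left of the dashed line.

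Which members are called here depends on the scale. As deposited, the standard core had a median difference of -0.08 and the cap 0.00, both under the 0.29 of all genes. Relative to that shift, obtained by median-of-ratios rescaling, 25 of 46 members were called, all 25 lower in STZ+AOS and 24 of them standard core or cap genes, beside 19.7% of all genes called lower. The 5 inducible genes had a median of 0.29 on that scale, and 0 of them passed. Quantile normalization called 2 members, Psmd14 (-0.44) and Psmg1 (-0.38), both lower, beside 26.5% of all genes. With the 3 libraries left out that had Cyp11b1, an adrenal enzyme, above 100 FPKM (control 3, STZ+AOS 1 and STZ+AOS 3), 1 member was called, Psmd3, a lid subunit, at -0.33 (adjusted p = 0.0478), beside 4.78% of all genes. This leaves STZ+AOS 2 alone in its group, assumed to vary like the others. Psmf1 was then at 0.30 (adjusted p = 0.0527) and Psmb8 at 1.16 (adjusted p = 0.0684).

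The interaction, the difference that AOS made in STZ-treated mice less the one it made in untreated mice, called 0 of 46 members by limma's test, beside 0% of all genes. At an unadjusted p under 0.05 there were 0 members, beside 33.4% of all genes. The smallest p was that of Psmd4 (0.23 ± 0.12, adjusted p = 0.169), followed by Psmg3 (-0.44 ± 0.23, adjusted p = 0.180) and Psmd9 (0.44 ± 0.24, adjusted p = 0.197). Thus the effect of AOS on a member was not shown to differ with STZ. Over the 6 groups at once, limma's moderated F-test called 0 of 46 members, beside 0.647% of all genes. At an unadjusted p under 0.05 there was 1 member, Psmf1 (2.17%), beside 31.1% of all genes. With control 3 and STZ 1 left out it called 5: Psmf1 (adjusted p = 0.00622), Psme1 (0.0190), Psmb9 (0.0203), Psmg4 (0.0209) and Psmb8 (0.0422), where 42.6% of all genes were called. Those libraries were picked because they stood apart from their groups, so these calls are not independent evidence.

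The remaining activators and chaperones passed no comparison as deposited, apart from Psmd9. Psme3, a nuclear relative of PA28, had group means of 56.3 to 60.6 FPKM, and Psme4, which builds another activator, of 28.9 to 33.3 FPKM. Psmd5 and Psmd10, chaperones of the cap base, had group means of 28.4 to 30.7 FPKM and 16.1 to 17.2 FPKM. Among the chaperones of the core, Psmg4 varied most, from 23.0 ± 2.15 FPKM in AOS to 33.6 ± 5.09 FPKM in STZ+AOS, while Psmg1, Psmg2 and Psmg3 had highest to lowest group means within 1.25 times of each other.

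The tissue-restricted subunits stayed near 0. Psma8 was listed at 0.15, 0.22 and 0.25 FPKM in controls, 0.14, 0.14 and 0.28 FPKM in STZ and 0.09 to 0.35 FPKM in the other 4 groups. Spermatid transcripts (10 genes, summed) stood at 35.8 to 49.8 FPKM in controls and 27.9 to 97.0 FPKM in STZ, against 0.07 to 1.51 FPKM in the other groups. The highest library of Psma8 was STZ+AOS 1, but values this low cannot show whether it follows them. Psmb11 was listed at 0 in most libraries and reached 0.02 FPKM in STZ+AOS 3 and STZ+AOS-FMT 1.

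Genes of the pathway outside the rule were compared by lists. In STZ+AOS against AOS, 2 of 9 cap partners with other names were higher: Uchl5, a deubiquitinase of the cap (21.9 against 15.3 FPKM, 0.49, adjusted p = 0.0111), and Ecpas, a scaffold (21.6 against 16.6 FPKM, 0.37, adjusted p = 0.00881). Of 10 regulators, 4 were higher and 0 lower. Among them were Nfe2l1, the factor that raises proteasome genes when activity falls short (49.9 ± 6.40 against 28.7 ± 1.78 FPKM, 0.77, adjusted p = 0.00859), and Zfand5, an activator of the cap (41.3 ± 13.1 against 19.7 ± 1.53 FPKM, 0.99, adjusted p = 0.00590). Stat3 (1.29, adjusted p = 0.00783) and Zfand2a (0.58, adjusted p = 0.0137) were the other pair. Of the 31 standard core and cap genes, 1 passed between the same groups, as given above.

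Of 8 genes that deliver ubiquitinated substrates, 4 were higher (Ubqln2, Ubqln4, Ufd1 and Faf1) and 1 was lower. Of 4 ubiquitin genes, Rps27a was higher (0.34, adjusted p = 0.0318). Of 10 genes of MHC class I presentation, 5 were higher, led by Tap1 (8.49 ± 1.62 against 3.18 ± 0.36 FPKM, 1.17, adjusted p = 0.0278) and Tap2 (17.4 ± 3.93 against 8.42 ± 2.01 FPKM, 0.97, adjusted p = 0.0142), with Tapbp, H2-K1 and H2-D1. Pdia3 was lower (-0.52, adjusted p = 0.0161). Of 10 interferon targets, Irf1 was higher (11.96 ± 3.64 against 5.33 ± 1.28 FPKM, 1.01, adjusted p = 0.0312). In the other comparisons 1 gene of these 6 lists passed, Ubqln2 in STZ+AOS against STZ (13.4 against 9.92 FPKM, 0.39, adjusted p = 0.0429). Beside the 46.5% of all genes called in STZ+AOS against AOS, none of these counts sets a list apart.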

How the data were processed

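The authors deposited 1 table of gene values for the 18 samples, with no unit named. The deposited values were taken as FPKM, because value times exon length summed to nearly the same total in every library (coefficient of variation 0.939%) and the plain sum did not (5.47%). Bowtie 0.12.2 and the build mm10 are named in the submitters' processing notes. How reads were counted, with which annotation and whether by strand, is information not given in the sources used here. Judged by low values (72 to 183 genes in a library), 1 read weighed the same within 1.13 times. Counting intervals need totals that are unknown.

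Genes at 1 FPKM or more in at least 3 libraries were fitted as log2(FPKM + 1), a scale that understates changes of low genes, with 1 mean per group over all 18 libraries, in limma 3.58.1 (R 4.3.3) with trend and robust. Benjamini-Hochberg adjustment took in every gene fitted, and 0.05 was the threshold. Fits were checked on simulated data. Alternatives changed the pseudocount, filter, scaling, fit, replicate block and libraries included. The subunit ratios were tested on log2 values by permutation. Groups come from the treatment labels. Members, lists, tests and alternatives were chosen with earlier results of these data known. Named were members past the threshold, the 3 of smallest p where none passed, the catalytic, PA28 and tissue-restricted members, and genes of the lists. Other members were named for their level, spread, role or calls under an alternative. Cdkn1a and Hpd are in no list and were added, Hpd because its range overlaps that of Psmd9. Coordinates are from GENCODE M21. The result of 1 gene of the lists is not reported here.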

Additional observations from a re-analysis of the deposited data

How the results depend on the processing

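In STZ+AOS against AOS the count of members called, 4 (46.5% of all genes), was 2 after quantile normalization (26.5%), 25 after median-of-ratios rescaling (33.3%), 2 without a filter (32.8%), 15 with library weights (59%), 11 without control 3 and STZ 1 (56.5%) and 1 without the libraries with Cyp11b1 above 100 FPKM (4.78%). Leaving out 1 library gave 1 to 7: 1 without AOS 2 or AOS 3, 2 without STZ+AOS-FMT 2, STZ+AOS-FMT 3, STZ+control-FMT 1 or STZ+control-FMT 3, and 7 without control 3, STZ 1 or STZ+AOS 3. The share of all genes called with 1 library left out is not given here, so these counts are not set against the table as a whole. Psmf1 was called in all 18 of these fits (adjusted p 0.00319 to 0.0378), Psmd9 in 15, Psmb8 in 8 and Psmc1 in 5. In STZ+AOS against STZ the count of 0 was 1 after median-of-ratios rescaling (6.35% of all genes) and 0 to 1 with 1 library left out. In STZ against control it was 1 without control 3 and STZ 1 (8.82% of all genes). Over the 6 groups it was 12 with library weights (48.6% of all genes), 5 without control 3 and STZ 1 (42.6%), and 0 to 1 with 1 library left out. In the other 5 comparisons it was 0 under every alternative run. Without control 3 and STZ 1 the adjusted p of each subunit ratio was 0.0497. These libraries were picked from earlier results of these data, so no count or p without them is independent evidence. Median-of-ratios rescaling turned the sign of Psmd4 (-0.0179), Psmd1 (-0.0629) and Psmc1 (-0.0446) in STZ+AOS against STZ, of Psmc1 (-0.1311) and Psmf1 (-0.0133) in STZ+AOS against AOS, and of Psmd4 in the interaction (-0.1175), and quantile normalization that of Psmf1 in STZ+AOS against AOS (-1.00e-04). Beyond the scaling and the samples left out, the cause was not tested. With the replicate number as a block, 5 members were called in STZ+AOS against AOS, beside 47.3% of all genes. In every other comparison 0 were called, beside 0% to 8.8% of all genes. Pairing of the samples by number was not shown, and the check cannot exclude it. Over 45 same-numbered pairs from different groups the correlation of deviations had a median of -0.004 (-0.258 to 0.667), with 15 above 0.1. Over 90 pairs with other numbers the median was 0.001 (-0.721 to 0.586), with 16 above 0.1. Of the 18 samples, 6 went best with their own number.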
